A study of Mus musculus with 41 samples.

Results

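The genes of MHC class II presentation were followed in sorted stromal cells of the mouse thymus. The set was given as a list of 10 genes: Cd74, H2-Aa, H2-Ab1, H2-Eb1, H2-DMa, H2-DMb1, H2-DMb2, H2-Oa, H2-Ob and Ciita. All 10 had a probe on the array, among 13283 genes in all, with 18 probes between them, and a gene's value is that of the probe with the highest mean. The other probes of the 6 genes with more than 1 probe were kept for comparison.

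RNA was measured on 41 Illumina arrays from thymi of male C57Bl/6 mice. Cells were sorted into thymic epithelial cells (TEC, CD45-EpCAM+) and non-epithelial stromal cells (nonTEC, CD45-EpCAM-). The groups in both fractions were unoperated young mice of 5 to 6 weeks, unoperated middle-aged mice of 9 to 12 months, and middle-aged mice 4 or 7 days after surgical castration or sham castration. TEC were also taken 20 days after either surgery, and no nonTEC array of day 20 was analysed here. Each group held 3 arrays, except nonTEC of sham-operated mice at day 7 with 2. The labels do not say whether arrays of a group came from separate mice or pools of mice, so p-values measure the spread between these arrays, which may be technical.

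MHC class II molecules are heterodimers of an alpha and a beta chain that carry peptides from the endosomal route to the cell surface, where CD4+ T cells read them. In the thymus they are displayed by cortical TEC, which select CD4+ T cells, by medullary TEC, which help to remove self-reactive ones, and by dendritic cells, macrophages and B cells. Cd74, the invariant chain, fills the groove of new heterodimers, H2-M (H2-DMa with H2-DMb1 or H2-DMb2) exchanges its remnant for peptide, H2-O (H2-Oa with H2-Ob) restrains H2-M, and Ciita is the coactivator that switches the whole set on. H2-Aa and H2-Ab1 encode the chains of I-A. H2-Eb1 encodes the beta chain of I-E, a molecule that C57BL/6 mice lack at the surface because their H2-Ea gene, not analysed here, is defective.

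Class II genes share a promoter module of X and Y boxes, bound by the RFX and NF-Y complexes that Ciita joins. The module is shown here as background, and its part in any difference between groups was not tested. RefSeq promoter windows of the GRCm38.p6 build, 250 bases before to 50 after each start site, were found for 7 members. The letters TGATTGG, which hold the inverted CCAAT of the Y box, were on the gene's strand in 6 of these, and in 4.01% of all 32851 windows (7.82% on either strand). The shorter letters GCAAC, taken from the X box, preceded them on the same strand in 4 members, with 23 to 26 bases between, and stood on the gene's strand in 19.3% of all windows (35.2% on either strand). The stretches around the Y letters, 62 bases each and 5′ to 3′ on the gene's strand, are given with both sets of letters in capitals; the letters do not overlap each other.
H2-Aa (chr17:34287862-34287923, minus strand): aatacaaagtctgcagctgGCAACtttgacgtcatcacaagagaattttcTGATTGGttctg
H2-Eb1 (chr17:34305756-34305817, plus strand): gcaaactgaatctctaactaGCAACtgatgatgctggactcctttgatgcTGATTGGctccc
H2-Oa (chr17:34092284-34092345, plus strand): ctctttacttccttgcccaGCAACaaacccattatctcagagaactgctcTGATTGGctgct
H2-Ob (chr17:34238796-34238857, plus strand): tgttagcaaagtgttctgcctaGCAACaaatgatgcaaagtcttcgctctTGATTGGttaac
H2-DMb1 (chr17:34153078-34153139, plus strand): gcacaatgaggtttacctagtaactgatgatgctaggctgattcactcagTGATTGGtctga
H2-DMb2 (chr17:34145107-34145168, plus strand): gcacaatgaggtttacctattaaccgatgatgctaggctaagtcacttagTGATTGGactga
The stretches of H2-DMb1 and H2-DMb2, neighbouring and closely related genes, matched at 56 of 62 positions and held TGATTGG without GCAAC. Neither window of H2-DMa held either set on the gene's strand. No window of Cd74, H2-Ab1 or Ciita was used here. A match of letters is a description of the window and not a measured site.

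The deposited values are normalized intensities on a log scale taken as base 2, so that a difference of 1 is a 2-fold change in intensity. The values have nearly equal quantiles within TEC and within nonTEC and other quantiles between them, from which separate normalization of the fractions was inferred. Differences are given with their standard error (SE) from a limma fit of group means, with 24 arrays in TEC and 17 in nonTEC, and a gene was called at a Benjamini-Hochberg adjusted p under 0.05 over all genes tested. A gene was tested if at least 1 group mean exceeded the median of all values, which all 10 members did in TEC (of 8195 genes) and 8 did in nonTEC (of 7771). H2-Ob and Ciita were not tested in nonTEC, and H2-Oa entered there through the young group alone. Levels of different genes come from different probes and were not compared. Over all genes, 4 TEC arrays were taken as standing apart from the rest of their groups. They were middle-aged array 3, sham day 4 array 3 and castrated day 4 arrays 2 and 3. The lowest r between arrays of a group, across genes, was 0.85, 0.95 and 0.93 in these groups and 0.96 to 0.99 in the other 5 TEC groups. These r values describe groups and do not by themselves single out an array. In castrated day 4 the choice left array 1 as the only reference. Keratin Krt8 lay at 12.73 to 13.65 in TEC and at 7.02 to 10.73 in nonTEC, and Epcam, the sorting marker, was not analysed here. In young mice all 6 fibroblast and all 5 tested endothelial markers were higher in nonTEC, where 42.1% of all genes tested across both fractions were. Of these, Col1a1 and Col3a1 lay below the median of all values on every TEC array. They entered the test through nonTEC alone and so had to differ. Pdgfra, Dpt, Pecam1, Cdh5 and Emcn lay below it on most TEC arrays. Of the pericyte markers, Acta2, Myh11, Rgs5 and Mcam had higher medians over the arrays in TEC than in nonTEC, and Pdgfrb and Cspg4 lower ones. Acta2 lay at 12.97 against 12.45 and Pdgfrb at 5.12 against 9.16.

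Class II genes read far higher in TEC than in nonTEC. In young mice all 10 members were higher in TEC by 2.43 (H2-Aa) to 5.29 (H2-Oa) on the log2 scale, while 24.3% of the 8487 genes tested across both fractions were higher. Of these members H2-Ob and Ciita lay below 6.73 in every nonTEC group and entered the test through TEC alone, so they had to differ; the other 8 were above it in at least 1 group of either fraction. H2-Oa in young mice read 12.49, 12.44 and 12.50 on the TEC arrays and 7.02, 6.82 and 7.73 on the nonTEC arrays, a difference of 5.29 ± 0.24 (adjusted p = 1.3e-18). Cd74 read 14.28, 14.44 and 14.44 in TEC and 11.16, 11.03 and 12.44 in nonTEC, a difference of 2.85 ± 0.28 (adjusted p = 1.9e-10) on a probe near the top of the scale in TEC. Its other probes gave 3.12 ± 0.26 and 4.73 ± 0.58. The second probe of Ciita gave 0.61 ± 0.35 (adjusted p = 0.126), and was not called. In young mice no array of one fraction overlapped the other for any member, as was so for 75.2% of all genes tested (27.1% with TEC above). In middle-aged mice 9 of the 10 were higher in TEC, where 28.5% of all genes were, H2-Ob and Ciita again among them. The exception was H2-Aa (1.58 ± 0.77, adjusted p = 0.0681). It read 10.45, 6.33 and 11.09 in middle-aged TEC and 6.38, 8.09 and 8.68 in middle-aged nonTEC, so that array 2 of TEC lay below every nonTEC array of that age. Without that array, or without nonTEC array 3, all 10 were called. Of the pan-leukocyte markers in both fractions, Rac2, Cd52, Laptm5 and Lcp1 had higher medians in TEC and Coro1a and Itgb2 lower ones. Cd52 lay at 12.16 against 8.45 and Coro1a at 9.34 against 9.96. In young mice the B cell mean lay at 7.66 to 7.82 in TEC and 6.65 to 7.37 in nonTEC. The dendritic cell mean lay at 6.02 to 6.31 and 6.24 to 6.82. The part of blood cells in the members' gap was not tested. Because the fractions appear to have been normalized separately, all differences between TEC and nonTEC rest on 2 scales.

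Among genes listed with the class II pathway, in young mice 1 of 7 tested genes of lysosomal processing was higher in TEC and 3 were lower, where 24.3% of all genes were higher and 42.1% lower: Ifi30, the thiol reductase that opens disulfide bonds of antigens, was higher by 1.03 ± 0.26, and the proteases Lgmn (-2.71), Ctsb (-2.48) and Ctsz (-1.13) were lower. Of the costimulatory ligands, Cd40 was higher in TEC by 3.66 ± 0.19 and Cd274 by 2.51 ± 0.22. Cd80, Cd86 and Icosl were higher too, but entered the test through TEC alone and so had to differ. Of the interferon gamma route 2 of 7 were higher and 4 lower, with Jak1, a receptor kinase, at 3.08 and Ifngr1, the ligand-binding receptor chain, at -2.83. None of the 3 tested subunits of the factors that bind class II promoters (Rfxap, Nfyb and Nfyc) passed the test.

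**Figure D1:**
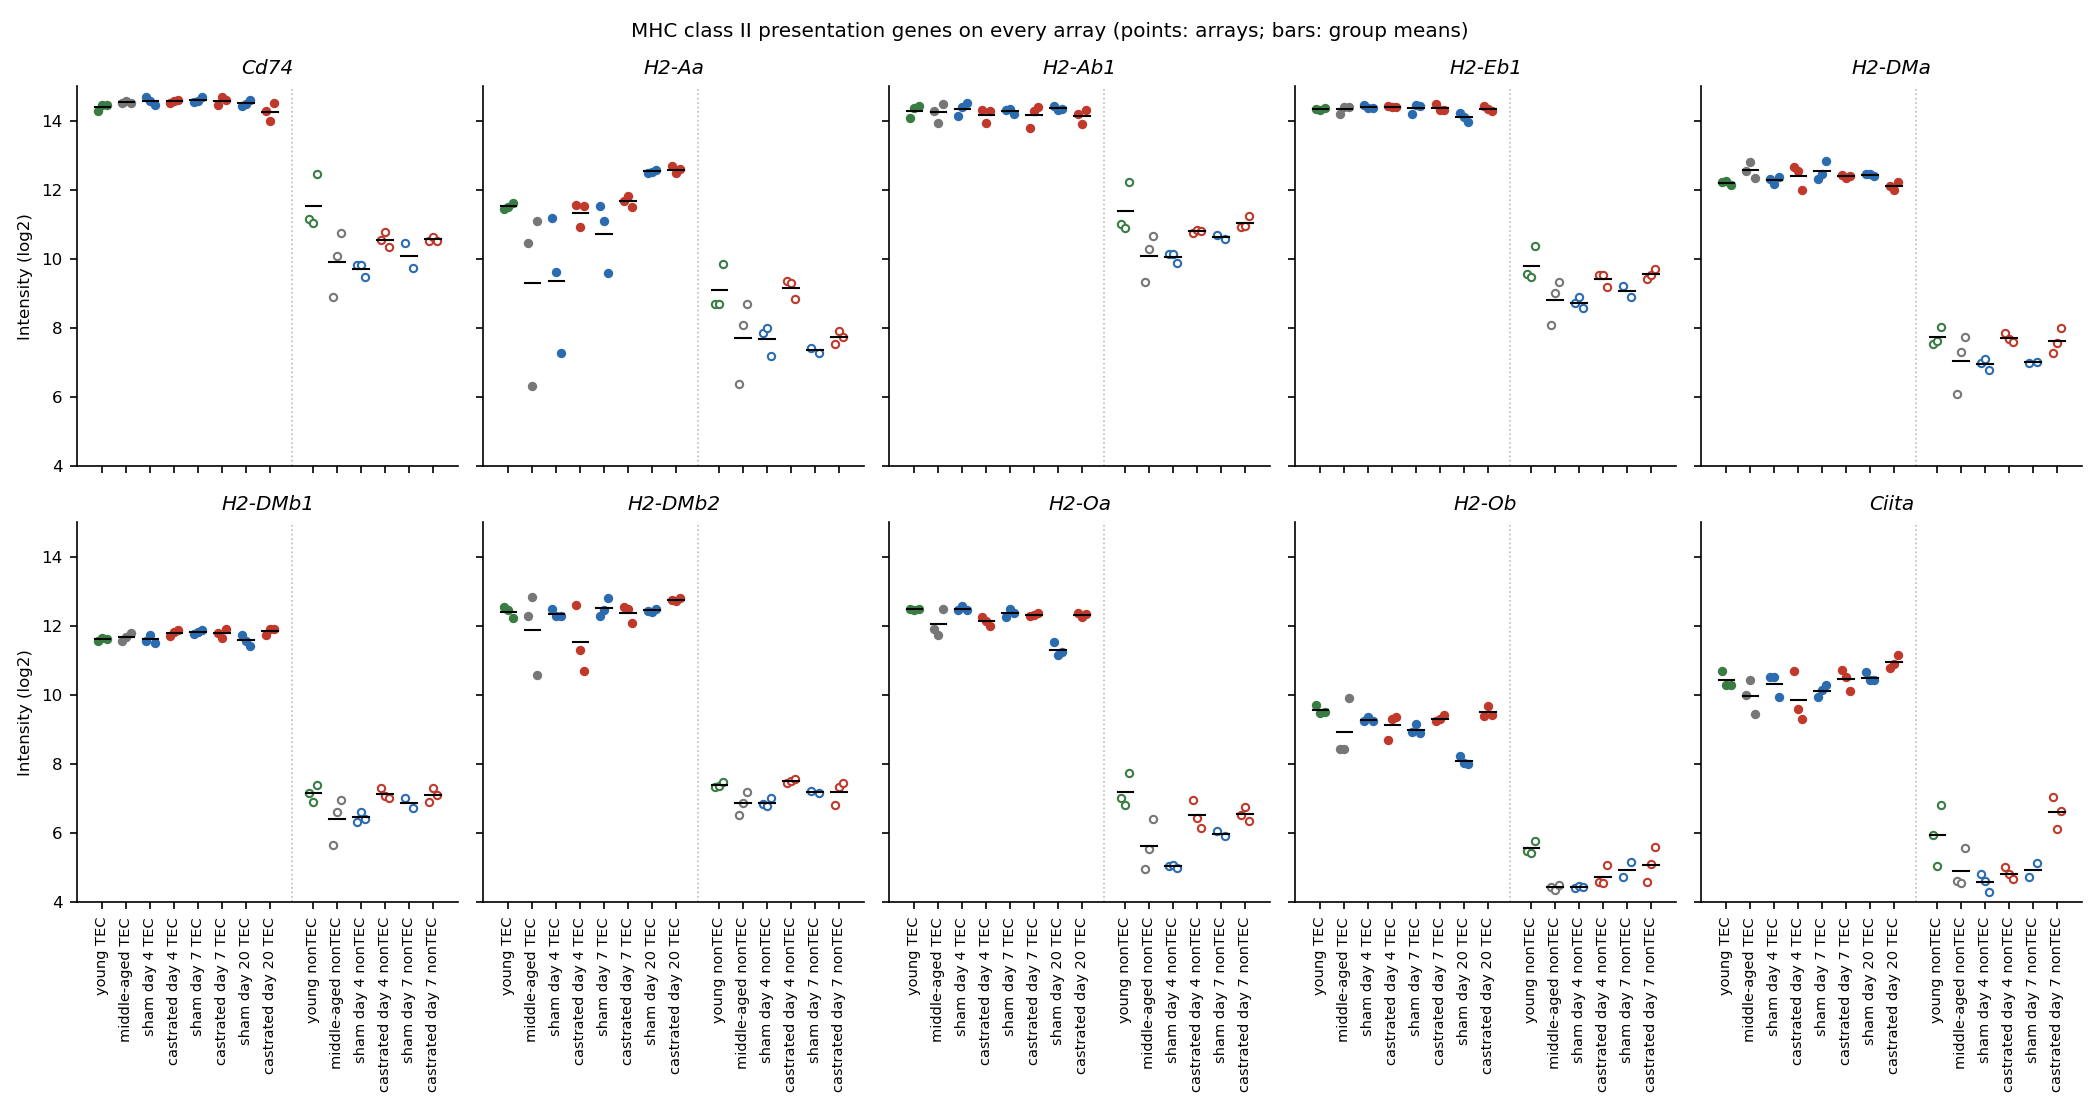
Normalized intensity (log2, vertical axis) of the 10 genes on every array, for the 8 TEC groups (filled points) and the 6 nonTEC groups (open points); bars are group means and colours mark young, middle-aged, sham and castrated groups. TEC arrays lie above nonTEC arrays for nearly every gene. H2-Aa scatters in middle-aged TEC and in sham TEC of days 4 and 7. H2-Oa and H2-Ob dip in sham day 20 TEC.

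Within TEC, the group means of the invariant chain and of the beta chains of I-A and I-E lay close together on their brightest probes. The 8 group means of Cd74 spanned 0.35, those of H2-Ab1 0.23 and those of H2-Eb1 0.31, and the values of all 3 lay within 0.90 of the highest value on the TEC arrays, 14.67, which Cd74 itself reached on 3 arrays. On their dimmest probes the group means of Cd74 spanned 2.60 and those of H2-Ab1 3.57. Whether the brightest values are compressed near the top of the scale was not tested. On the brightest probe, the group means of H2-DMb1 spanned 0.26 and those of H2-DMa 0.46. Other members spanned more: 1.18 for H2-Oa, 1.47 for H2-Ob, 1.08 for Ciita and 1.22 for H2-DMb2.

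H2-Aa had the widest spread of the members in TEC, with group means from 9.29 to 12.58. It read 11.45, 11.49 and 11.61 in young TEC, 11.19, 9.62 and 7.27 in sham day 4, 11.56, 10.92 and 11.52 in castrated day 4, 11.53, 11.08 and 9.58 in sham day 7 and 11.68, 11.81 and 11.51 in castrated day 7. At day 20 it read 12.49, 12.52 and 12.58 after sham surgery and 12.68, 12.47 and 12.60 after castration. The lowest readings sat on 1 array of the middle-aged group, 2 of sham day 4 and 1 of sham day 7, and the 6 arrays of day 20 lay above all others. H2-Ab1, the partner chain of H2-Aa, did not follow: it read 14.28, 13.94 and 14.48 in middle-aged TEC and 14.12, 14.40 and 14.50 in sham day 4. H2-Aa had 1 probe, so that its swings could not be set against another probe. H2-Eb2, a class II gene outside the set, was also low on some of these groups' arrays. It lay at 8.89 to 9.18 in young, 5.16 to 8.82 in middle-aged and 5.38 to 9.25 in sham day 4 TEC. At day 20 it lay at 9.29 to 10.16 after sham surgery and 10.42 to 11.17 after castration.

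Probes of the same gene disagreed on several TEC arrays. For H2-Ab1, the dimmest of its 3 probes (that of lowest mean) read 13.91, 14.26 and 8.42 in middle-aged TEC and 14.52, 9.73 and 8.28 in castrated day 4, with a median of 14.29 over the 24 arrays, while the brightest read 14.32, 13.92 and 14.28 in the latter group. The dimmest probe of Cd74 likewise read 11.58, 12.32 and 9.67 and 12.62, 9.98 and 9.23. The 3 lowest arrays of these probes, all among those standing apart, were also low for both probes of H2-DMb2: the brighter read 12.29, 12.82 and 10.57 in middle-aged and 12.61, 11.31 and 10.70 in castrated day 4 TEC, and the dimmer read 10.19, 10.82 and 5.35 and 11.31, 6.62 and 5.70. Outside those arrays, the dimmer probe of H2-DMb2 read 11.27, 11.36 and 9.41 in castrated day 7 TEC, where the brighter read 12.53, 12.49 and 12.10. Both probes of H2-DMa stayed within 0.59 of their medians on all TEC arrays. H2-DMb1 and H2-DMb2 are closely related, and cross-hybridisation between their probes was not tested.

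**Figure D2:**
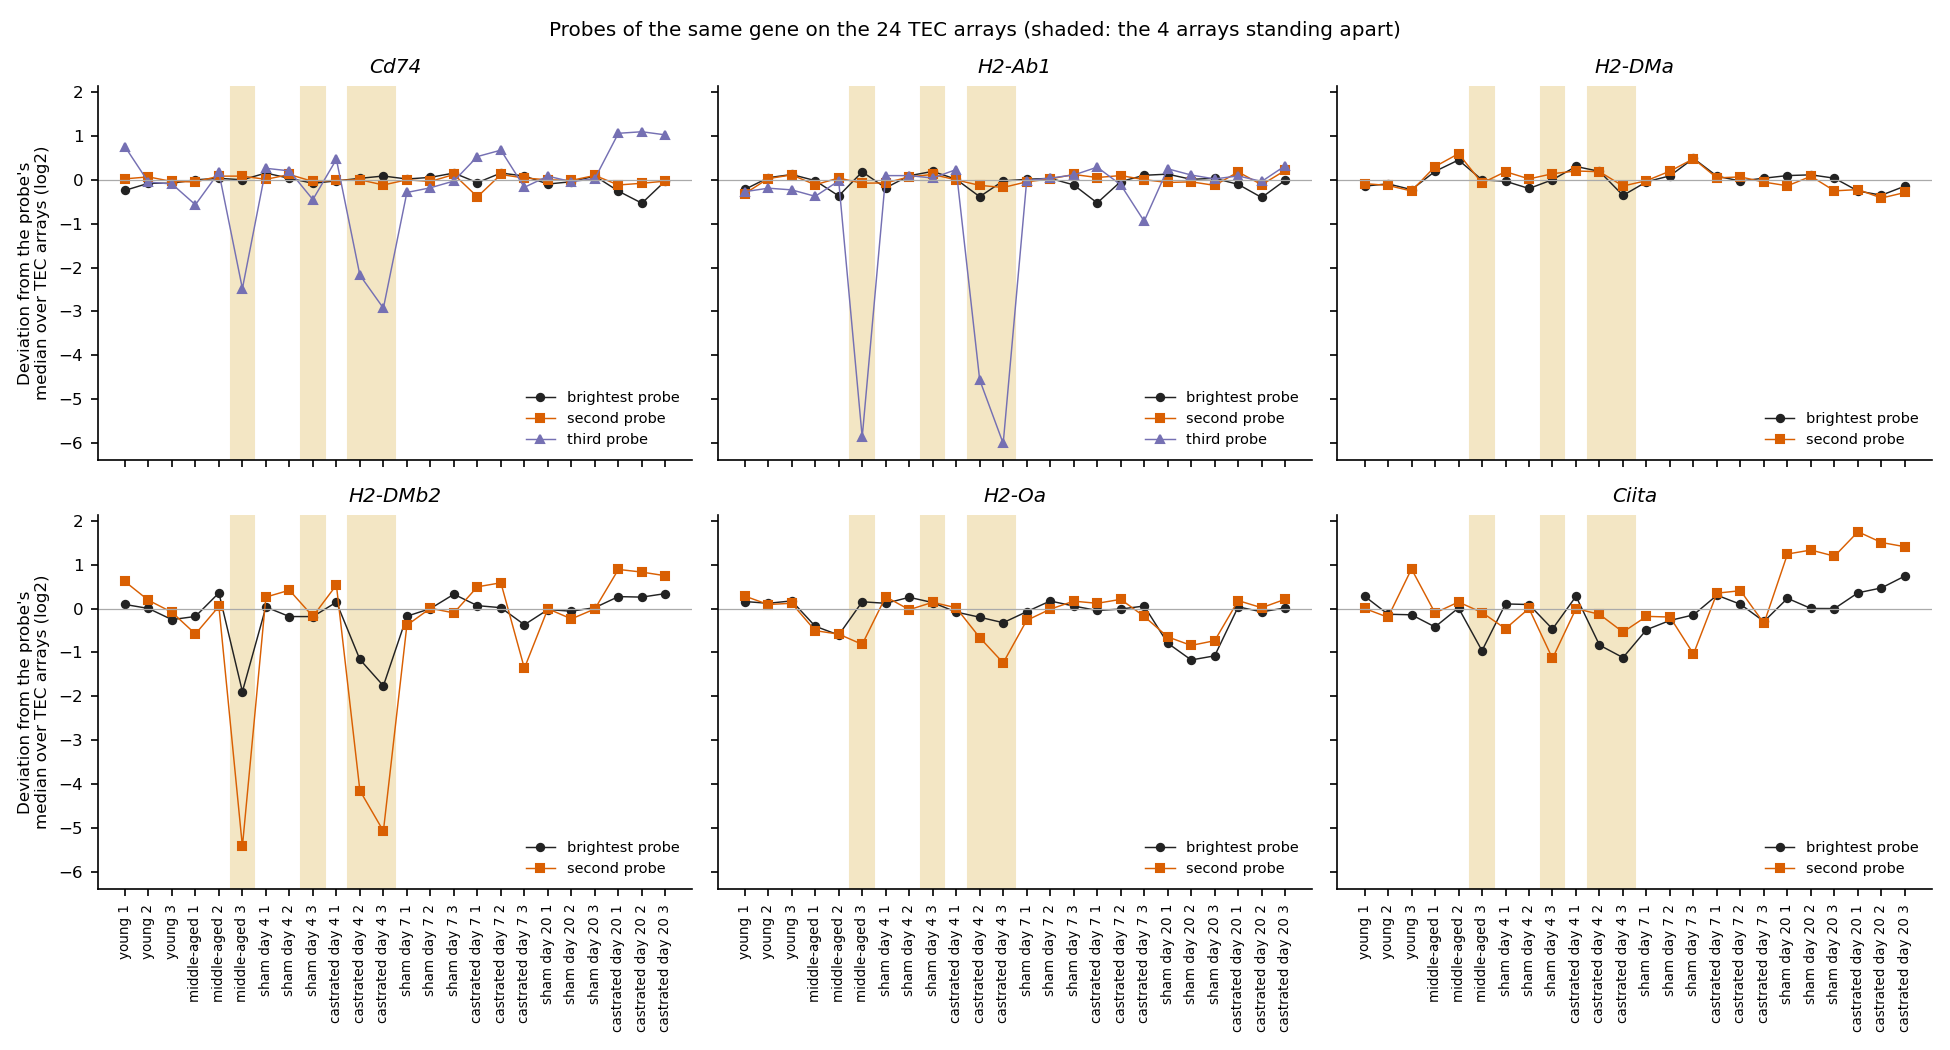
Deviation of each probe from its own median over the 24 TEC arrays (log2, vertical axis), for the 6 genes with more than 1 probe; arrays run along the horizontal axis and the 4 arrays standing apart are shaded. On 3 of the shaded arrays the dimmest probes of Cd74, H2-Ab1 and H2-DMb2 fall while the brightest probes of Cd74 and H2-Ab1 do not.

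Between young and middle-aged TEC, 1 of the 10 members was called, lower, where 6.88% of the 8195 genes tested were lower and 18.8% were called in either direction. This was H2-Oa, which read 12.49, 12.44 and 12.50 in young and 11.92, 11.72 and 12.48 in middle-aged TEC. It fell by 0.44 ± 0.14 (adjusted p = 0.0349), with middle-aged array 3 inside the range of the young arrays. H2-Ob, its partner, read 9.72, 9.48 and 9.49 in young and 8.44, 8.45 and 9.91 in middle-aged TEC (-0.63 ± 0.27, adjusted p = 0.101). Again arrays 1 and 2 were low and array 3 was not. Without middle-aged array 3, one of those standing apart, 4 members and 29.2% of all genes were called. The members were H2-Oa, H2-Ob (-1.12 ± 0.17, adjusted p = 1.4e-04), H2-Aa (-3.13 ± 0.90, adjusted p = 0.0146) and, higher, H2-DMa (0.47 ± 0.16, adjusted p = 0.0326). Without any 1 of the other 5 arrays of these groups no member was called, and 9.45% to 19.4% of all genes were. The difference of H2-Aa with all arrays was -2.23 ± 0.90 (adjusted p = 0.087). The other 7 differences, those of Cd74, H2-Ab1, H2-Eb1, Ciita and the H2-M genes, lay between -0.52 (H2-DMb2) and 0.37 (H2-DMa), and the median of the 10 was -0.24 against 0.01 over all genes.

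Over all genes, 6.88% were lower and 11.9% higher in middle-aged TEC. Around the members, 2 of 7 lysosomal genes were lower in middle-aged TEC, Ifi30 (-1.0 ± 0.25) and the aminopeptidase Ctsh (-0.69 ± 0.17). Of 6 costimulatory ligands Cd40 was lower (-0.64 ± 0.14) and Cd274, the inhibitory ligand PD-L1, was higher (1.0 ± 0.25), and of the interferon gamma route Irf1, a factor that acts upstream of Ciita, was higher (0.81 ± 0.13). Markers of blood cells were lower in the same arrays: 3 of 5 tested pan-leukocyte markers, whose mean level lay at 9.57 to 9.75 in young and 8.77 to 8.99 in middle-aged TEC, 2 of 5 macrophage markers and 2 of 3 B cell markers. With the pan-leukocyte mean of each array as a covariate, H2-Oa was no longer called (-0.24 ± 0.22, adjusted p = 0.71). That mean did not overlap between the age groups, so this fit cannot separate it from age. Calls over all genes also fell with it, to the counts given at the end.

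At 4 and 7 days after castration no member was called in TEC. At day 4, 3.62% of all genes were called, and the members' differences from sham lay between -0.81 (H2-DMb2) and 1.97 (H2-Aa), with a median of -0.09 against 0.04 over all genes; 2114 genes had an unadjusted p under 0.05 in the limma fit, among them H2-Aa (1.97 ± 0.90, adjusted p = 0.174) and H2-Oa (-0.37 ± 0.14, adjusted p = 0.113). Without castrated day 4 array 1, which left only arrays standing apart in that group, H2-DMb2 (-1.35 ± 0.39) and Ciita (-0.89 ± 0.25) were called lower, where 16.8% of all genes were called. At day 7, 0.171% of all genes were called, and the members lay between -0.15 (H2-DMa) and 0.93 (H2-Aa), with the lowest adjusted p at 0.649 (H2-Ob).

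At day 20 both chains of H2-O were higher in TEC of castrated mice than in those of sham-operated mice. H2-Oa read 12.36, 12.25 and 12.34 after castration and 11.54, 11.15 and 11.25 after sham surgery, a difference of 1.0 ± 0.14 or 2.01-fold in intensity (adjusted p = 6.0e-05). H2-Ob read 9.39, 9.67 and 9.43 and 8.23, 8.02 and 8.01, a difference of 1.41 ± 0.27 or 2.65-fold (adjusted p = 8.3e-04). For both genes the 3 castrated arrays lay above the 3 sham arrays, as they did for 27.6% of all genes tested. The second probe of H2-Oa gave 0.88 ± 0.20 (adjusted p = 0.00424). H2-Eb1, at 14.42, 14.33 and 14.26 against 14.21, 14.09 and 13.97, was also called (0.25 ± 0.08, adjusted p = 0.035), though not when any of castrated arrays 1 and 2 or sham arrays 2 and 3 was left out (adjusted p of 0.0751 to 0.176). So 3 of 10 members were higher, where 13.1% of all genes were. Cd74 (-0.25 ± 0.10, adjusted p = 0.0726) and H2-DMb1 (0.26 ± 0.10, adjusted p = 0.0668) missed the threshold in opposite directions on their brightest probes. The dimmest probe of Cd74 read the other way, at 13.21, 13.25 and 13.18 after castration and 12.24, 12.11 and 12.18 after sham surgery (1.04 ± 0.62, adjusted p = 0.257).

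**Figure D3:**
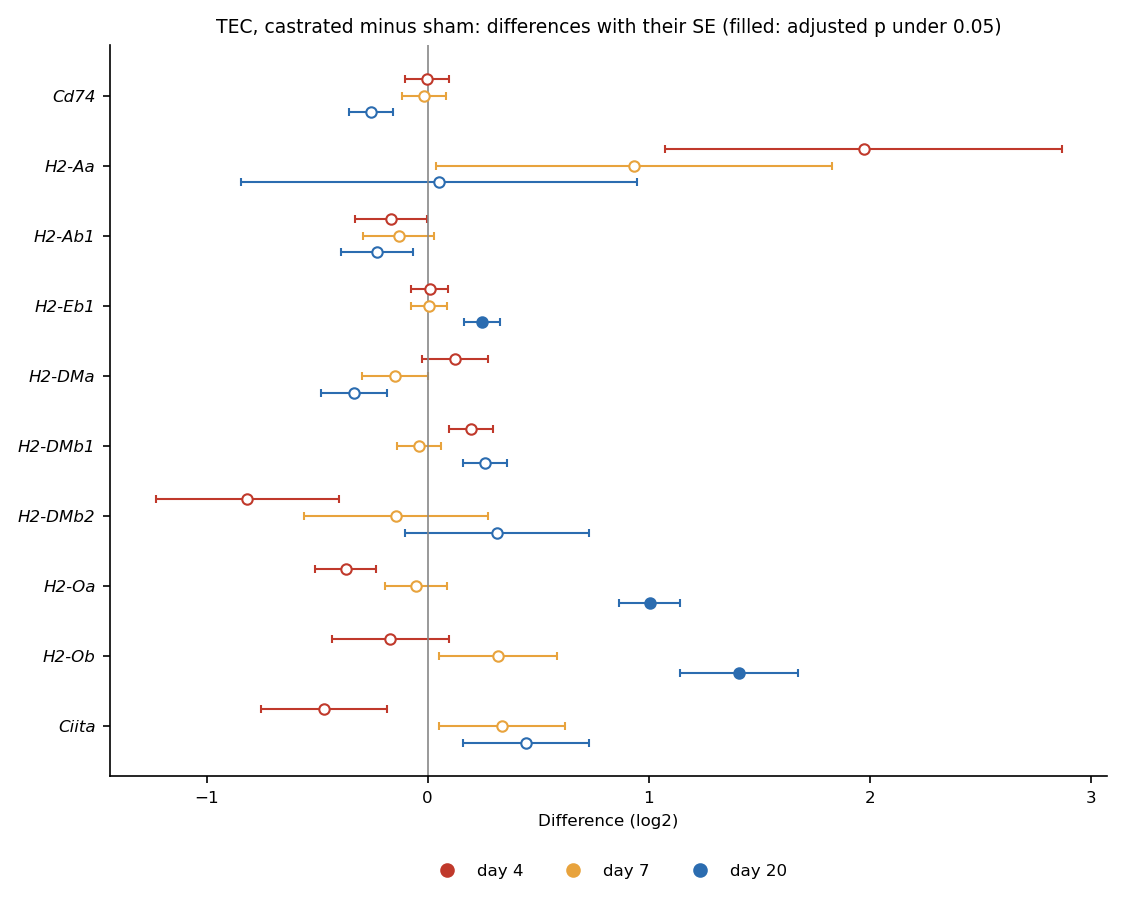
Differences between castrated and sham TEC (log2, horizontal axis) for the 10 genes at days 4, 7 and 20, with bars of 1 SE and 3 arrays in each group; filled points have an adjusted p under 0.05. The filled points are H2-Eb1, H2-Oa and H2-Ob at day 20.

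The sham arrays of day 20 were low for H2-O. Against sham TEC of days 4 and 7, sham TEC of day 20 fell by 1.12 for H2-Oa and by 1.05 for H2-Ob, in a comparison in which 57.8% of all genes were called. H2-Oa read 12.44, 12.58 and 12.46 in sham day 4 and 12.25, 12.50 and 12.38 in sham day 7 TEC, and 12.25, 12.13 and 12.00 and 12.28, 12.31 and 12.38 in the castrated groups of those days, and the castrated day 20 arrays lay within the range of these earlier arrays. H2-Ob read 9.25, 9.36 and 9.25 in sham day 4 and 8.91, 9.17 and 8.90 in sham day 7 TEC. In castrated TEC it lay at 8.69 to 9.36 at day 4, 9.24 to 9.42 at day 7 and 9.39 to 9.67 at day 20. For H2-Ob the castrated day 20 arrays thus reached above the sham and castrated arrays of days 4 and 7. H2-Aa was higher in sham day 20 TEC (2.49 ± 0.78, adjusted p = 0.0101) and H2-Eb1 lower (-0.29 ± 0.07, adjusted p = 0.002). The sham day 20 arrays enter both comparisons, which are therefore not independent. Time after surgery cannot be told apart here from any other trait shared by the day 20 arrays. The castration difference itself was larger at day 20 than over days 4 and 7 for H2-Oa (1.22 ± 0.17, adjusted p = 9.2e-05) and H2-Ob (1.33 ± 0.33, adjusted p = 0.00671), where 22.9% of all genes differed; this test was added after the values were seen. Against unoperated middle-aged TEC in place of sham, castrated day 20 TEC differed by 0.28 ± 0.14 for H2-Oa (adjusted p = 0.103) and 0.56 ± 0.27 for H2-Ob (adjusted p = 0.0836).

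Other genes and markers moved with H2-O at day 20, where 13.1% of all genes were higher after castration and 9.4% lower. Of 6 costimulatory ligands 3 were higher after castration, Cd40 (1.19 ± 0.14), Cd80 (1.57 ± 0.51) and Cd86 (0.98 ± 0.32), as were 2 of 7 lysosomal genes, Ctsh (1.22 ± 0.17) and Ifi30 (0.97 ± 0.25), while Irf1 was lower (-0.56 ± 0.13). Of 11 medullary TEC markers 5 were higher, among them Aire, the regulator of self-antigen transcription (1.07 ± 0.22), and Fezf2 (0.96 ± 0.14). Of blood cell markers, 4 of 5 pan-leukocyte genes were higher, with mean levels of 9.47 to 9.70 after castration and 8.55 to 8.78 after sham surgery. The same held for 4 of 5 tested macrophage markers, with mean levels of 6.93 to 7.01 and 6.00 to 6.22 over 9 genes, and for 2 of 3 B cell markers, Cd79b (1.07 ± 0.29) and Fcrla (0.83 ± 0.28). Fcrla lay above the median of all values on 2 of the 24 TEC arrays. Of the 2 tested dendritic cell markers none was called. The part of these cells in the H2-O difference was not tested, and fewer cells of a type cannot be told apart from less RNA per cell. With the pan-leukocyte mean as a covariate the differences were 0.77 ± 0.25 for H2-Oa (adjusted p = 0.127) and 1.72 ± 0.49 for H2-Ob (adjusted p = 0.0981). That mean did not overlap between castrated and sham arrays of day 20, so this fit cannot separate it from castration. Calls over all genes also fell with it, to the counts given at the end.

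In nonTEC most of the tested members fell with age. Cd74 read 11.16, 11.03 and 12.44 in young and 8.90, 10.09 and 10.76 in middle-aged nonTEC, and fell by 1.63 ± 0.37 (adjusted p = 0.00332). H2-Ab1 read 11.00, 10.90 and 12.21 and 9.33, 10.28 and 10.67, and fell by 1.28 ± 0.30 (adjusted p = 0.00384). H2-Oa read 7.02, 6.82 and 7.73 and 4.95, 5.53 and 6.42, a difference of -1.56 ± 0.32 (adjusted p = 0.00169); it passed the filter only through the young group and so had to be lower in the other. In each case all 3 middle-aged arrays lay below all 3 young arrays, as they did for 19.3% of all genes tested; young array 3 was the highest and middle-aged array 1 the lowest. H2-Aa fell by 1.37 ± 0.42, H2-Eb1 by 0.99 ± 0.26, H2-DMb1 by 0.73 ± 0.26 and H2-DMb2 by 0.53 ± 0.19. Beside H2-Oa, 6 of the other 7 tested members were lower, where 15.5% of the 7771 genes tested were. H2-DMa was not called (-0.68 ± 0.30, adjusted p = 0.0883).

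With H2-Oa counted, 7 of 8 were called, and this count depended on single arrays: it was 3 without young array 3 (22% of all genes called), 4 without middle-aged array 1 (24.4%) and 8 without middle-aged array 3 (35.3%). H2-Ob, not tested here, was listed at 5.48, 5.43 and 5.77 in young and 4.43, 4.37 and 4.49 in middle-aged nonTEC. Ciita, on the probe brightest in nonTEC, read 5.94, 5.06 and 6.83 and 4.62, 4.55 and 5.58. Both genes were lower on average in the older group, but Ciita overlapped between the age groups on that probe. On its other probe Ciita lay at 5.61 to 6.33 in young and 4.49 to 5.02 in middle-aged nonTEC, without overlap.

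Markers of other cells fell in the same nonTEC arrays, where 15.5% of all genes were lower with age and 16.8% higher. The pan-leukocyte markers had a mean level of 8.28 to 8.44 in young and 6.47 to 7.13 in middle-aged nonTEC, and all 5 that were tested were lower, although the sort had removed CD45+ cells; Ptprc, which encodes CD45, lay between 4.38 and 5.73 on all nonTEC arrays. The epithelial markers Krt8 (-1.69 ± 0.33) and Krt18 (-1.50 ± 0.32) were also lower, although the sort had removed EpCAM+ cells. Of the macrophage list 1 of 3 was lower (Lyz2, -2.39 ± 0.50) and 1 higher (Cd14, 0.74 ± 0.23). Of the B cell list 1 of 2 was lower (Cd79b, -2.53 ± 0.38) and of the dendritic cell list 1 of 2 (Siglech, -1.27 ± 0.38). Cd79b lay above the median of all values on 3 of the 17 nonTEC arrays, and Siglech and the pan-leukocyte marker Lcp1 on 2 each. A marker that passed the filter through the young group alone had to be lower in the other. With the pan-leukocyte mean as a covariate no member was called, and Cd74 differed by -0.34 ± 0.70 (adjusted p = 0.821). That mean did not overlap between the age groups, so this fit cannot separate it from age. Calls over all genes also fell with it, to the counts given at the end. The part of residual epithelial or blood cells in the members' fall was not tested.

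**Figure D4:**
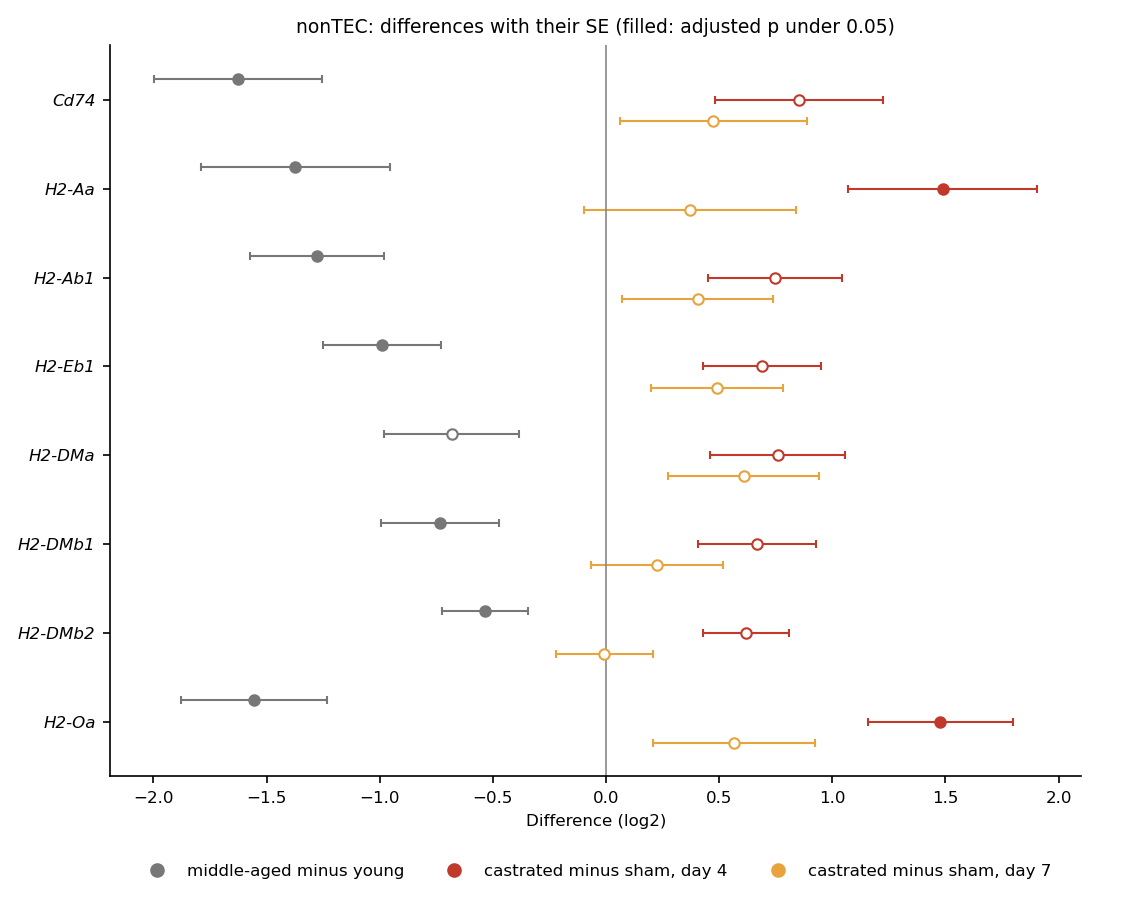
Differences in nonTEC (log2, horizontal axis) for the 8 members tested there, with bars of 1 SE: middle-aged minus young, and castrated minus sham at days 4 and 7; filled points have an adjusted p under 0.05. All ageing points lie left of 0 and all day 4 points right of it.

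At day 4 after castration H2-Aa and H2-Oa were higher in nonTEC. H2-Aa read 9.36, 9.29 and 8.82 after castration and 7.84, 7.99 and 7.17 after sham surgery, a difference of 1.49 ± 0.42 or 2.8-fold (adjusted p = 0.0405). H2-Oa read 6.97, 6.43 and 6.16 and 5.06, 5.09 and 4.99, a difference of 1.48 ± 0.32 (adjusted p = 0.0139). Its sham values lay under the median of all values, 6.73, in the range of Ptprc on the nonTEC arrays, 4.38 to 5.73, so no fold is given. These 2 of 8 tested members were called, where 2.65% of all genes were higher. The other 6 were not, with differences of 0.62 (H2-DMb2, adjusted p = 0.0598) to 0.85 (Cd74, adjusted p = 0.178). For all 8 tested members the 3 castrated arrays lay above the 3 sham arrays, as they did for 11.1% of all genes tested, and the median difference was 0.75 against -0.04 over all genes. Cd74, for example, read 10.54, 10.78 and 10.34 after castration and 9.82, 9.81 and 9.47 after sham surgery. Neither call held when castrated array 1 or sham array 3 was left out; H2-Oa was then at 1.25 ± 0.35 (adjusted p = 0.0989) and 1.45 ± 0.37 (adjusted p = 0.0696), and H2-Aa was lost without any of the arrays but castrated array 3. H2-Ob, not tested, read 4.59, 4.55 and 5.09 after castration and 4.42, 4.48 and 4.44 after sham surgery.

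At day 7 no member was called in nonTEC, where 0.438% of all genes were and 799 genes had an unadjusted p under 0.05 in the limma fit, none of them a member. The differences lay between -0.01 (H2-DMb2) and 0.61 (H2-DMa), with 7 of 8 above 0, and the SE of H2-DMa was 0.33 with 2 sham arrays. Cd74 read 10.53, 10.64 and 10.52 after castration and 10.45 and 9.72 after sham surgery. Averaged over both days H2-Oa alone was called (1.02 ± 0.24, adjusted p = 0.0157), where 2.73% of all genes were higher; the call was lost without either sham day 7 array. The same average over days 4, 7 and 20 in TEC called H2-Ob alone (0.52 ± 0.15, adjusted p = 0.0357), where 5.87% of genes were higher; leaving out 1 array gave 0.48 to 0.59, with an adjusted p of up to 0.0761. Sham surgery by itself, against unoperated middle-aged mice, called no member in TEC (5.58% of all genes, 2165 genes with an unadjusted p under 0.05) or in nonTEC (0.283%, 1616 genes).

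Markers of blood and epithelial cells moved with the members at day 4 in nonTEC as they had with age. Krt18 was higher by 1.94 ± 0.32 and Krt8 by 1.84 ± 0.33, and 4 of 5 pan-leukocyte markers and 6 of 6 thymocyte markers were higher, where 2.65% of all genes were. The pan-leukocyte mean lay at 6.84 to 8.07 after castration and 6.23 to 6.51 after sham surgery, and the thymocyte mean at 7.46 to 9.18 and 6.62 to 6.97. None of the 3 tested macrophage, 2 dendritic cell or 2 B cell markers was called, and the macrophage mean lay at 5.60 to 5.80 and 5.45 to 5.50. With the pan-leukocyte mean as a covariate neither H2-Oa (0.47 ± 0.42) nor H2-Aa (0.21 ± 0.55) was called. That mean did not overlap between castrated and sham arrays of day 4, so this fit cannot separate it from castration. Calls over all genes also fell with it, to the counts given at the end. The part of these cells in the difference was not tested. Of the pathway genes Cd83, which stabilises class II at the surface, was the only one called (1.17 ± 0.31, adjusted p = 0.0338); with age it had fallen by 1.23 ± 0.31.

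**Figure D5:**
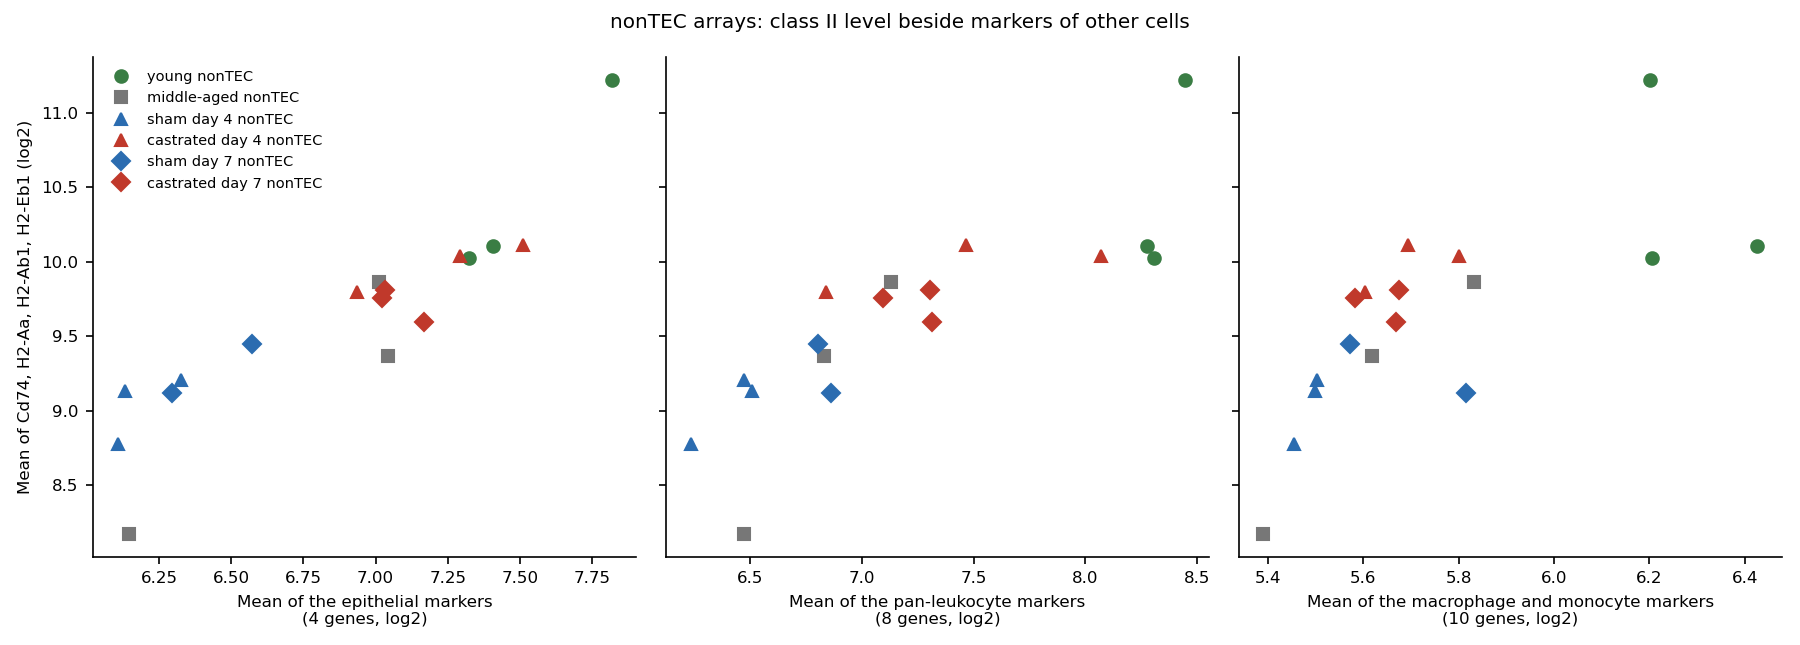
Mean level of Cd74, H2-Aa, H2-Ab1 and H2-Eb1 on each of the 17 nonTEC arrays (log2, vertical axis) beside the mean level of the epithelial, pan-leukocyte and macrophage markers on the same array (log2, horizontal axes); points are arrays and colours and shapes mark the groups. In the epithelial and pan-leukocyte panels the sham day 4 arrays lie low on both axes and the young arrays lie high.

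Likeness among the members was described over the arrays of each fraction. Against the mean of Cd74, H2-Aa, H2-Ab1 and H2-Eb1, the other tested members had Pearson's r of 0.78 (H2-DMb2) to 0.91 (H2-Oa) over the 17 nonTEC arrays. In TEC that mean followed H2-Aa (r = 0.98, of which H2-Aa is a part), and the 9 other members had r between -0.45 (H2-DMa) and 0.20 (Ciita) over 24 arrays. Among genes outside the set, those most like the mean in nonTEC were Krt14 (r = 0.93), Slc9a3r1 (0.92), Alox12e (0.91), Spint1, Krt18 and Cops5 (0.90 each). Those in TEC were Med28 (0.96), Ak3, Sec61g, Nop53 (0.95 each), Cmas and Actr3 (0.94 each). The arrays share their groups, so these coefficients are descriptions.

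The age difference itself differed between the fractions for 6 of 10 members, in 11.2% of all 8487 genes. The difference between middle-aged and young was higher in TEC than in nonTEC by 1.77 ± 0.40 for Cd74 (adjusted p = 0.00399), 1.23 ± 0.35 for H2-Ab1 (adjusted p = 0.0227), 1.12 ± 0.34 for H2-Oa (adjusted p = 0.0282), 1.05 ± 0.34 for H2-DMa, 0.99 ± 0.28 for H2-Eb1 and 0.80 ± 0.27 for H2-DMb1. In this comparison the TEC values of Cd74, H2-Ab1 and H2-Eb1 lay near the top of their scale. The count fell to 1 without middle-aged nonTEC array 1 or young nonTEC array 3, and to 3 without any 1 of the young TEC arrays. With the dimmest probe of H2-Ab1 in place of the brightest its difference was -1.29 (adjusted p = 0.586). With the dimmest probe of Cd74 its difference was 0.29 in place of 1.77. On that probe the group means of Cd74 fell with age in both fractions, from 12.36 to 11.19 in TEC and from 7.63 to 6.17 in nonTEC. In middle-aged TEC both dimmest probes were lowest on array 3, which stood apart (8.42 for H2-Ab1, 9.67 for Cd74). On the middle probe, H2-Ab1 went with age from 14.07 to 14.08 in TEC and from 9.42 to 8.57 in nonTEC. Cd74 went on its middle probe from 14.47 to 14.49 and from 11.35 to 9.88. These TEC values also lay near the top of the scale. The castration difference over days 4 and 7 differed between the fractions for 1 member, where 6.04% of all genes did: H2-Oa had a difference in TEC minus that in nonTEC of -1.23 ± 0.25 (adjusted p = 0.00403). Without castrated day 4 TEC array 1 the count was 4.

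Ciita, the coactivator, was not called in any comparison within TEC on its brightest probe with all arrays, and was not tested in nonTEC. In TEC that probe, of the RefSeq transcript, read 10.70, 10.29 and 10.28 in young, 10.00, 10.43 and 9.46 in middle-aged, 10.65, 10.42 and 10.42 in sham day 20 and 10.78, 10.89 and 11.16 in castrated day 20 mice, with the last 3 arrays the highest of all. The other TEC probe of Ciita read 5.85, 6.32 and 5.18 in sham day 4, 6.14, 6.12 and 5.28 in sham day 7 and 7.56, 7.65 and 7.51 in sham day 20 TEC. On it sham day 20 was higher than sham days 4 and 7 by 1.76 ± 0.27 (adjusted p = 2.1e-05), against 0.27 ± 0.25 (adjusted p = 0.355) on the brightest probe, so the probes differed in the call. In nonTEC the brightest probe is that other one: drawn from a cDNA clone and not from the RefSeq transcript, it read 7.05, 6.12 and 6.65 in castrated day 7 nonTEC against 4.72 and 5.13 in sham. The probe of the RefSeq transcript read 5.23, 5.53 and 5.59 and 4.65 and 4.92 in the same groups. Both probes were higher after castration on every array, the first by more, and both lay under or near the median of all values, 6.73.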

How the data were processed

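The authors deposited normalized log2 intensity values of Illumina arrays, already normalized. No source used here states how, and separate normalization of TEC and nonTEC was inferred from the values, whose quantiles nearly match within a fraction and not between fractions. The base of the log is not stated and was taken as 2. The submitters' processing notes name limma, with neither version nor role. From 24671 probes, the 20825 with 1 listed gene were used, with 1 probe for each gene, that of highest mean over the arrays fitted. Genes were tested if at least 1 group mean exceeded 6.73, the median of all values.

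Group means were fitted with limma 3.58.1 in R 4.3.3 (empirical Bayes with trend, no block), with the 24 TEC or 17 nonTEC arrays, or all 41 for comparisons between fractions, and p-values were Benjamini-Hochberg adjusted over all genes tested. The procedure was tested on simulated data. Figures were drawn with Python 3.11.15. The text names every member, up to 4 called genes of a pathway or marker list by smallest p, and the 6 genes most like the class II mean by Pearson's r. Members and the 17 lists were chosen with earlier results of these data known. Alternatives covered the filter, normalization, probe choice, weights, variance prior, arrays fitted, a replicate block, control group, a leukocyte covariate and leaving out arrays. The number of arrays limits the precision.

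Same-numbered arrays of different groups were not treated as pairs, since the labels do not say that a number marks a shared animal or day.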

Additional observations from a re-analysis of the deposited data

Results flagged for a closer look

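The change with age differed between the fractions for 6 members by a direct test of the difference (limma, adjusted over all genes), as it did for 11.2% of all genes tested. Leaving out 1 array at a time gave 1 to 6 members, with 6.89% to 15.3% of all genes. The difference in TEC minus that in nonTEC was 1.77 for Cd74, 1.23 for H2-Ab1, 1.05 for H2-DMa, 0.80 for H2-DMb1, 0.99 for H2-Eb1 and 1.12 for H2-Oa. The TEC values of Cd74, H2-Ab1 and H2-Eb1 lay near the top of their scale. With the dimmest probe in place of the brightest, the difference was 0.29 for Cd74 and -1.29 for H2-Ab1. Both dimmest probes were lowest, within middle-aged TEC, on the array of that group that stood apart. On the middle probes of both genes the group means fell with age in nonTEC and not in TEC. The effect of castration over days 4 and 7 differed between the fractions for H2-Oa, by -1.23. Within TEC the effect of castration at day 20 differed from that over days 4 and 7 for H2-Oa, by 1.22, and for H2-Ob, by 1.33, in a test added after the values were seen. No group held the 4 arrays that a search of each member for single outlying values needs.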

How the results depend on the processing

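Counts below are members called. With array weights they were 4 for ageing in TEC, 3, 1 and 8 for castration at days 4, 7 and 20 in TEC, 5 for the TEC average, 8 for day 20 against days 4 and 7, 8, 1 and 8 for days 4, 7 and the average in nonTEC, and 8 for the castration difference between fractions. Calls over all genes rose in the same comparisons, in that order, from 1542 to 3188, 297 to 2314, 14 to 2275, 1841 to 4299, 887 to 3330, 1876 to 4352, 490 to 1856, 34 to 651, 508 to 1672 and 513 to 2963 genes. Fitting only the arrays compared gave 0 for ageing in TEC, 7 for day 20, 2 for the TEC average, 2 for ageing in nonTEC, 5 for day 4 and 5 for the average in nonTEC, and 0 and 5 for the ageing and castration differences. In that order 8, 3829, 1848, 1302, 357, 731, 113 and 756 genes were called. The pan-leukocyte covariate left 0 for ageing in TEC, day 20, day 20 against days 4 and 7, ageing, day 4 and the average in nonTEC and both differences between fractions, and 2 for sham day 20 against earlier sham. In that order 8, 32, 0, 134, 0, 3, 865, 0 and 2881 genes were called. It turned the sign of ageing in nonTEC for H2-Aa (0.49), H2-DMb1 (0.12) and H2-Eb1 (0.054), none called. The third probe of H2-Ab1 turned its ageing difference to -1.29. Second probes gave 2 for ageing in TEC, 1 for day 4 in TEC, 4 for ageing in nonTEC, 0 for the nonTEC average and 4 for the castration difference. Means of probes gave 1 for day 4 in TEC and in nonTEC, and 3 and 2 for the ageing and castration differences. The stricter filter gave 4, 1 and 0 for ageing, day 4 and the average in nonTEC; for that average, no filter gave 2 and all 41 arrays in 1 fit gave 3. No trend gave 0 and sham in place of unoperated older mice 2 for ageing in TEC, a robust trend gave 1 for day 4 in nonTEC, and unoperated controls gave 1 for day 7 in nonTEC. Without the 4 arrays standing apart, ageing in TEC had 4, the TEC average 2 and sham surgery in TEC 1, with 2978, 761 and 1272 genes called. The cause of these shifts was not tested.

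Leaving out 1 array at a time gave 0 to 4 for ageing in TEC, 3 to 8 for ageing in nonTEC, 0 to 2 for day 4 in either fraction, 0 for day 7 in either, 2 to 4 for day 20, 0 to 1 for either average, 2 to 3 for day 20 against days 4 and 7, 4 for sham day 20, 0 to 1 for sham surgery in TEC, 0 in nonTEC, 1 to 6 and 1 to 4 for the ageing and castration differences, 10 for TEC against nonTEC in young and 9 to 10 in middle-aged mice. Over all genes this called 9.45% to 29.2% for ageing in TEC, 22% to 35.3% for ageing in nonTEC, 0% to 16.8% for day 4 in TEC, 0.694% to 8.72% for day 4 in nonTEC, 14.3% to 19.3% for day 20 and 2.52% to 13.2% for the castration difference.

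With the replicate number as a replicate block, 3 members were called for day 4 in nonTEC in place of 2, and every other count was as without it (1 for ageing in TEC, 3 for day 20 in TEC, 7 for ageing in nonTEC). Deviations of same-numbered arrays correlated at -0.12 to 0.27, over 0.1 in 7 of 20 pairs, and 18 of 36 arrays correlated best with their own number.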
